A study of Mus musculus with 84 samples.

Results

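The subject here is a set of 10 genes, Slc38a2, Slc38a3, Slc38a4, Slc7a2, Slc43a1, Slc3a2, Slc1a2, Slc1a4, Slc16a10 and Slc25a47, namely amino acid transporters of the liver and 1 liver carrier of the mitochondrial membrane. They were chosen as a list of symbols with earlier results of these data known, and each matched 1 of the 48794 Ensembl gene identifiers in the tables. All 10 passed the filter on low values in the liver, where 15964 genes were tested, and in epididymal white adipose tissue (eWAT), where 18536 genes were tested.

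The mice were male C57BL/6J with diet-induced obesity (DIO), 22 weeks old at the start, housed singly and fed a diet with 60% fat, and those conditions were common to every group. For 30 days they received 1 subcutaneous injection a day of vehicle, of BI 456906 (groups of 3, 10, 20 and 30 nmol/kg) or of semaglutide (groups of 20 and 100 nmol/kg). BI 456906 is a peptide that activates both the receptor of glucagon (GCGR) and that of glucagon-like peptide-1 (GLP-1R), and semaglutide is a peptide that activates the GLP-1R. Each of the 7 groups gave 6 liver libraries and 6 eWAT libraries of bulk RNA, out of 11 mice allocated to a group, and the labels do not say which liver and eWAT libraries came from 1 mouse. The 2 compounds shared the 20 nmol/kg dose, while their highest doses, 30 nmol/kg of BI 456906 and 100 nmol/kg of semaglutide, differed.

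The liver draws amino acids from the portal blood for protein synthesis, glucose production and urea formation. Sodium-coupled carriers of the SLC38 family concentrate neutral amino acids in the hepatocyte, SLC7 carriers bring in cationic ones, SLC1 carriers bring in glutamate and small neutral ones, and facilitative carriers such as those of SLC43 and SLC16 let large neutral and aromatic amino acids follow their gradient. Glucagon, whose receptor is abundant on hepatocytes, has long been known to raise hepatic amino acid uptake, above all through the sodium-coupled activity called system A.

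Liver libraries held 21676902 to 53869104 reads (median 43179390) and eWAT libraries 37573004 to 53996914 (median 46475069). Levels are given as TPM, a share of all transcripts that is corrected for gene length, and differences as log2 fold changes (log2FC) ± their standard error, with the false discovery rate (FDR, the Benjamini-Hochberg adjusted p of limma/voom over all genes tested in the tissue). A gene passed at an FDR of at most 0.05, and a passing gene with a log2FC of at least 1 in size was called. The sum of 5 hepatocyte markers (Alb, Apoa1, Ttr, Apob and Serpina1c) was 68549 to 108917 TPM over the liver libraries, and that of 6 adipocyte markers was 10790 to 36504 TPM over the eWAT libraries, so each tissue held the markers of its label. In liver the hepatocyte sum ran from 68549 to 82548 TPM with vehicle and from 86287 to 100672 TPM at 30 nmol/kg BI 456906, where 4 of the 5 markers rose and 1 fell. The 3 tested adipocyte markers of 6 fell there, as did 2 of 5 macrophage markers and 4 of 5 stellate or fibroblast markers, while the other one, Pdgfra, rose (log2FC 0.66, FDR 0.0054). The part of these shifts in the transporter values was not tested, and in bulk tissue fewer cells of a type and less RNA per cell cannot be told apart. The p-values set differences between group means against the spread of libraries within groups, pooled over all groups of the fit. Nothing in the labels ties a library to a numbered animal.

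The gene models below are those of GENCODE M21 on GRCm38. Slc38a2 (ENSMUSG00000022462) lies on the minus strand of chromosome 15 from 96687392 to 96699730, and Slc38a4 (ENSMUSG00000022464) lies on the same strand from 96994820 to 97055956. Slc38a3 (ENSMUSG00000010064) spans 107650634 to 107669530 of chromosome 9 on the minus strand. Slc7a2 (ENSMUSG00000031596) spans 40862396 to 40922308 of chromosome 8 on the plus strand, and the model Gm26584 overlaps it on the other strand. Slc43a1 (ENSMUSG00000027075, 84838850 to 84863594) and Slc1a2 (ENSMUSG00000005089, 102658659 to 102790784) are on the plus strand of chromosome 2, the latter overlapped by Gm13872 on the other strand. Slc3a2 (ENSMUSG00000010095) spans 8706882 to 8723369 of chromosome 19, Slc1a4 (ENSMUSG00000020142) spans 20302180 to 20332713 of chromosome 11, and Slc16a10 (ENSMUSG00000019838) spans 40033532 to 40142258 of chromosome 10, all on the minus strand, with Gm25613 opposite Slc16a10. Slc25a47 (ENSMUSG00000048856) spans 108836046 to 108856815 of chromosome 12 on the plus strand and holds Mir345 on the same strand. Whether the counting used strand is not given in the sources used here, so reads of the overlapping models cannot be told apart from those of these members.

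In vehicle liver the 10 members differed widely in level. Slc25a47, a liver-enriched member of the mitochondrial carrier family whose role in amino acid transport is not established, had the highest mean, 1233 ± 83.8 TPM (SD, n = 6, as in the means that follow). It was followed by Slc38a3 with 500.0 ± 72.04 TPM and Slc38a4 with 400.1 ± 46.9 TPM, whose libraries overlapped each other but no other member. Slc1a2 (52.8 ± 10.2 TPM), Slc7a2 (34.7 ± 6.29 TPM) and Slc3a2 (33.8 ± 1.296 TPM) formed the next rank, each overlapping its neighbour. Slc16a10 (23.2 ± 3.89 TPM) and Slc38a2 (17.1 ± 3.25 TPM) had lower means and overlapped each other. Slc16a10, at up to 28.8 TPM, also overlapped Slc7a2, which went down to 25.5 TPM. Slc43a1 (2.35 ± 0.995 TPM) and Slc1a4 (0.847 ± 0.169 TPM) stood apart at the bottom, with 113 to 321 and 87 to 149 reads per vehicle library. At 30 nmol/kg BI 456906 the order was different: Slc7a2 had moved to the fourth place with no overlap with its neighbours, and Slc38a2 to the sixth, overlapping Slc1a2. With semaglutide Slc7a2 also took the fourth place at both doses, there overlapping Slc1a2.

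**Figure D1:**
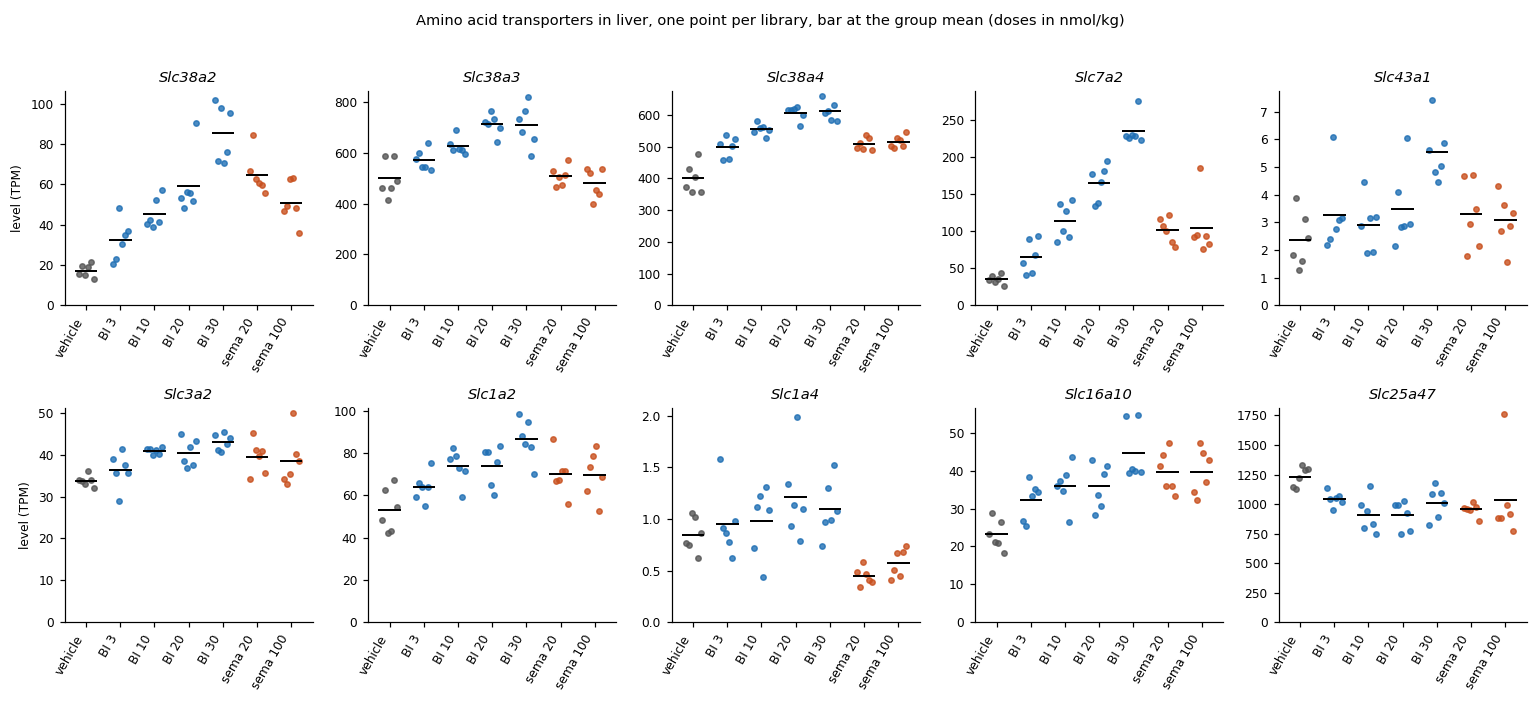
Level of each of the 10 members (TPM, vertical axis from 0) in every liver library, by treatment group along the horizontal axis, with points for libraries and a line for the group mean. Slc38a2 and Slc7a2 climb with the BI 456906 dose, Slc25a47 lies lower in most treated groups, and Slc1a4 is lowest in the semaglutide groups.

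Slc38a2 encodes SNAT2, the inducible sodium-coupled carrier of small neutral amino acids that underlies much of system A activity. Its lowest, median and highest liver levels were 12.8, 17.2 and 21.2 TPM with vehicle. They were 20.6, 32.5 and 48.2 TPM at 3 nmol/kg BI 456906, 38.97, 41.6 and 57.1 TPM at 10, 48.2, 54.3 and 90.6 TPM at 20 and 70.4, 85.7 and 102 TPM at 30 nmol/kg. Every library at 10 nmol/kg and above exceeded every vehicle library, and 5 of 6 did so at 3 nmol/kg. The log2FC against vehicle was 0.83 ± 0.17 (FDR 0.0027) at the lowest dose and 2.26 ± 0.17 (FDR 8.6e-13) at the highest, a 4.77-fold rise. With semaglutide the levels were 55.5, 61.4 and 84.5 TPM at 20 nmol/kg and 35.9, 48.5 and 63.2 TPM at 100 nmol/kg, again above all vehicle libraries. The corresponding log2FC values were 1.85 ± 0.17 (FDR 1.9e-09) and 1.49 ± 0.17 (FDR 1.7e-08).

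The Slc38a2 promoter is shown because the gene rose with both compounds and its sequence holds a match to TGACG, the shared core letters of the cAMP response element that glucagon signalling acts through. The sequence covers 250 bases before to 50 after the RefSeq start (GRCm38.p6, chr15:96699679-96699978, minus strand), with the match in capitals, its first letter 27 bases before the start.
Slc38a2: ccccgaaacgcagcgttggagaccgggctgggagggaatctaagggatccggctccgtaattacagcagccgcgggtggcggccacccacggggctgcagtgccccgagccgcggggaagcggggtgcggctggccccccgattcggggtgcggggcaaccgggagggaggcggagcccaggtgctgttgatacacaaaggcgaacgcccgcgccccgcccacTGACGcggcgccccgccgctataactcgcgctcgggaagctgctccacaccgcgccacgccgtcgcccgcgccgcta
The full element TGACGTCA was not found in any of the 10 promoter entries that 8 of the members have, and it occurs on either strand in 1.79% of 32851 RefSeq promoters of this length. TGACG, which is part of that longer motif, occurs in 20.8% of them, so a match is a frequent event. Slc38a4 has 3 entries, of which 1 held TGACG, 110 bases before its start. Besides these, TGATGNAA, the core of the amino acid response element bound by ATF4 with a C/EBP partner, was searched on both strands, and among the promoter entries of the members it was found only in that of Slc1a4, while 3.97% of all promoters hold it. Sequence outside these windows was not searched, and Slc38a3 and Slc7a2 have no entry. These matches describe letters, not binding.

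Slc38a4 encodes SNAT4, a carrier of neutral amino acids that is prominent in liver. Its levels were 357, 389.6 and 476 TPM in the vehicle group and 581, 609 and 660.1 TPM at 30 nmol/kg BI 456906. From 10 nmol/kg upwards no treated library overlapped the vehicle libraries, and the log2FC values were 0.24 ± 0.06 (FDR 0.0072), 0.36 ± 0.06 (FDR 7.9e-06), 0.45 ± 0.06 (FDR 6.7e-08) and 0.48 ± 0.06 (FDR 8.1e-09) in order of dose. Semaglutide gave 490.0, 504 and 536 TPM at 20 nmol/kg and 496, 512 and 547 TPM at 100 nmol/kg. Both groups lay wholly above vehicle, with log2FC values of 0.25 ± 0.06 (FDR 0.0005) and 0.28 ± 0.06 (FDR 0.00016).

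Slc38a3 encodes SNAT3, the system N carrier of glutamine, asparagine and histidine, known in liver for glutamine transport. With vehicle its levels were 416, 474 and 589 TPM. They were 595, 614 and 691 TPM at 10 nmol/kg BI 456906, 645, 718 and 765 TPM at 20 and 589, 709 and 822 TPM at 30 nmol/kg, in each case above all vehicle libraries, although at 30 nmol/kg only by a narrow margin (589.2 against 589.1 TPM). The rise passed at 20 nmol/kg, with a log2FC of 0.40 ± 0.09 (FDR 0.00056), and at 30 nmol/kg, with 0.41 ± 0.09 (FDR 0.00025), but not at 10 nmol/kg, with 0.21 ± 0.09 (FDR 0.069), a value that did pass with library size alone (FDR 0.035), on both TPM scales (0.0012) and with sample quality weights (0.00076). Semaglutide gave 468, 511 and 571 TPM at 20 nmol/kg and 399, 488 and 539 TPM at 100 nmol/kg, overlapping vehicle. The log2FC values with semaglutide were -0.06 ± 0.09 (FDR 0.64) and -0.13 ± 0.09 (FDR 0.24), with 95% intervals of -0.25 to 0.13 and -0.32 to 0.05. Of 6 pericentral hepatocyte markers 2 rose and 4 fell at 30 nmol/kg BI 456906, and their sum was 6137 to 7991 TPM there, 6923 to 9294 TPM in the vehicle group and 7939 to 10134 TPM at 100 nmol/kg semaglutide. Their part in the Slc38a3 values was not tested.

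Slc7a2 encodes CAT2, the carrier of arginine, lysine and ornithine, whose liver form is a low-affinity variant. It showed the largest change of the 10 members at 30 nmol/kg BI 456906. Its lowest, median and highest levels were 25.5, 34.2 and 43.5 TPM in the vehicle group and 41.3, 61.98 and 93.3 TPM at 3 nmol/kg BI 456906. They were 84.7, 114 and 142 TPM at 10 nmol/kg, 134, 171 and 194 TPM at 20 and 223, 228 and 276 TPM at 30 nmol/kg. No library at 10, 20 or 30 nmol/kg overlapped vehicle, and no library at 30 nmol/kg overlapped any of the other 6 groups. The log2FC values were 0.80 ± 0.18 (FDR 0.0041), 1.57 ± 0.18 (FDR 3.9e-08), 2.13 ± 0.18 (FDR 3.2e-11) and 2.68 ± 0.18 (FDR 6.2e-14), the last a 6.41-fold rise. Semaglutide gave 78.9, 104 and 121 TPM at 20 nmol/kg and 75.9, 92.2 and 184 TPM at 100 nmol/kg, above all vehicle libraries. The log2FC was 1.44 ± 0.18 (FDR 6.8e-08) at 20 nmol/kg and 1.44 ± 0.18 (FDR 5.8e-08) at 100 nmol/kg. One library of the latter group, number 81, reached 184 TPM while the other 5 lay between 75.9 and 94.5 TPM, and without it the log2FC at 100 nmol/kg was 1.24.

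Slc43a1 encodes LAT3, a facilitator of branched-chain amino acids and phenylalanine. Its levels were 1.28, 2.13 and 3.89 TPM in the vehicle group, 2.15, 2.88 and 6.04 TPM at 20 nmol/kg BI 456906 and 4.44, 5.33 and 7.43 TPM at 30 nmol/kg. Only the 30 nmol/kg group lay wholly above vehicle and passed, with a log2FC of 1.19 ± 0.27 (FDR 0.00032). The other BI 456906 doses gave 0.32, 0.16 and 0.43, and semaglutide gave 0.38 ± 0.30 (FDR 0.3) and 0.35 ± 0.30 (FDR 0.35). With sample quality weights 20 nmol/kg BI 456906 (0.64, FDR 0.049) and both semaglutide doses (0.70, FDR 0.019, and 0.68, FDR 0.033) passed as well. At 113 to 564 reads per liver library, the standard errors of Slc43a1 were among the widest of the members.

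Slc16a10 encodes TAT1, a facilitator of the aromatic amino acids tryptophan, tyrosine and phenylalanine. Its levels were 18.2, 22.2 and 28.8 TPM in the vehicle group, 39.5, 40.1 and 54.7 TPM at 30 nmol/kg BI 456906, 33.3, 38.7 and 47.4 TPM at 20 nmol/kg semaglutide and 32.2, 39.9 and 47.4 TPM at 100 nmol/kg semaglutide. These 3 treated groups lay wholly above vehicle. All 6 treated groups passed, with log2FC values of 0.42, 0.52, 0.52 and 0.87 for BI 456906 in order of dose and 0.68 and 0.70 for semaglutide. Their standard errors were 0.13 throughout.

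Slc3a2 encodes the 4F2 heavy chain (CD98), which carries the light chains of several SLC7 exchangers to the cell surface and transports nothing alone. Its liver levels were 32.1, 33.8 and 36 TPM in the vehicle group, 39.95, 41.2 and 41.8 TPM at 10 nmol/kg BI 456906, 36.8, 40.1 and 44.8 TPM at 20 and 40.6, 43.2 and 45.4 TPM at 30 nmol/kg. The 3 higher doses lay wholly above vehicle, although the log2FC values were small: 0.16 ± 0.06 (FDR 0.049), 0.14 ± 0.06 (FDR 0.071) and 0.25 ± 0.06 (FDR 0.00093), of which the second did not pass. Semaglutide gave 34.1, 40.3 and 45.1 TPM and 32.9, 36.9 and 50.04 TPM, overlapping vehicle, with log2FC values of 0.09 ± 0.06 (FDR 0.25) and 0.09 ± 0.06 (FDR 0.23). With scaling by library size alone the 10 nmol/kg value did not pass (FDR 0.080), and on the log2(TPM + 1) scale the 20 nmol/kg groups of both compounds did.

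Slc1a2 encodes GLT-1, a sodium-coupled glutamate carrier found in perivenous hepatocytes. Its levels were 42.4, 51.3 and 66.97 TPM in the vehicle group, 70.1, 86.1 and 98.3 TPM at 30 nmol/kg BI 456906, 55.9, 69.3 and 86.7 TPM at 20 nmol/kg semaglutide and 52.7, 70.9 and 83.2 TPM at 100 nmol/kg semaglutide. Of these, only the 30 nmol/kg group did not overlap vehicle. The log2FC values were 0.34 ± 0.14 (FDR 0.09), 0.57 ± 0.14 (FDR 0.0012), 0.60 ± 0.14 (FDR 0.00052) and 1.03 ± 0.14 (FDR 6.3e-08) for BI 456906, the first of which did not pass. Both semaglutide doses passed, with 0.49 ± 0.14 (FDR 0.0039) and 0.49 ± 0.14 (FDR 0.0033).

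Slc1a4 encodes ASCT1, an exchanger of alanine, serine, cysteine and threonine, and it was the member that fell with semaglutide and did not pass with BI 456906. Its levels were 0.62, 0.815 and 1.06 TPM with vehicle. They were 0.79, 1.12 and 1.99 TPM at 20 nmol/kg BI 456906 and 0.74, 1.03 and 1.52 TPM at 30 nmol/kg, overlapping vehicle. They were 0.34, 0.44 and 0.58 TPM at 20 nmol/kg semaglutide and 0.41, 0.59 and 0.74 TPM at 100 nmol/kg. All 6 libraries at 20 nmol/kg semaglutide lay below every vehicle library, and 3 of 6 did so at 100 nmol/kg. The fall passed at both doses, with log2FC values of -0.99 ± 0.25 (FDR 0.0016) and -0.65 ± 0.24 (FDR 0.024). No BI 456906 dose passed, and the 95% interval of the log2FC was -0.07 to 0.79 at 20 nmol/kg and -0.14 to 0.73 at 30 nmol/kg. Slc1a4 was the member with the fewest liver reads, 25 to 253 per library, and on the log2(TPM + 1) scale the fall at 100 nmol/kg semaglutide did not pass (FDR 0.094).

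The Slc1a4 promoter is shown because this gene had the largest difference between the compounds at the matched dose and holds both kinds of match. The 300 bases are from GRCm38.p6, chr11:20332664-20332963, minus strand, and capitals mark TGACG and TGATGNAA as they read from the opposite strand, their first printed letters 134 and 4 bases before the start.
Slc1a4: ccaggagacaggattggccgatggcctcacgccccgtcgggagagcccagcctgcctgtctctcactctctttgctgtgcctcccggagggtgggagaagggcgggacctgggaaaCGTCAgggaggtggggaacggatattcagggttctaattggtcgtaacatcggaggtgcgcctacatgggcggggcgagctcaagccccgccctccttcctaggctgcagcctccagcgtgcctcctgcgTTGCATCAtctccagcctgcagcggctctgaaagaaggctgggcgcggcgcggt
As above, the matches are a description of letters in this window.

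Slc25a47 fell with both compounds. Its levels were 1128, 1252 and 1329 TPM in the vehicle group, 747, 887 and 1156 TPM at 10 nmol/kg BI 456906, 744, 958 and 1026 TPM at 20 and 822, 1047 and 1176 TPM at 30 nmol/kg. With semaglutide they were 857, 962 and 1019 TPM at 20 nmol/kg and 770.1, 898 and 1760.2 TPM at 100 nmol/kg. Both 20 nmol/kg groups lay wholly below vehicle, and 5 of 6 libraries did so in the other 4 treated groups. The log2FC values were -0.25 ± 0.13 (FDR 0.19), -0.54 ± 0.13 (FDR 0.0011), -0.54 ± 0.13 (FDR 0.00072) and -0.32 ± 0.13 (FDR 0.035) for BI 456906, the first of which did not pass. For semaglutide they were -0.37 ± 0.13 (FDR 0.019) and -0.33 ± 0.13 (FDR 0.036). The value at 30 nmol/kg BI 456906 did not pass without library 70 of that group (-0.27, FDR 0.085). In the 100 nmol/kg semaglutide group library 81 held 1760 TPM, above all vehicle libraries, while the other 5 lay between 770 and 995 TPM. Without it the log2FC was -0.50 (FDR 0.00015), whereas edgeR and DESeq2 on all libraries gave FDRs of 0.089 and 0.094.

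Counted over the members, 4 rose and none fell at 3 nmol/kg BI 456906, where 13.4% of all genes passed. At 10 and at 20 nmol/kg 6 rose and 1 fell, beside 37.5% and 45.9% of all genes. At 30 nmol/kg 8 rose and 1 fell beside 58.8%, and 4 of the 10 were called higher (Slc7a2, Slc38a2, Slc43a1 and Slc1a2) beside 5.99% of all genes. Semaglutide gave 5 higher and 2 lower at each dose, beside 46.5% of all genes at 20 nmol/kg and 48.2% at 100 nmol/kg. The median log2FC of the members was 0.67 at 30 nmol/kg BI 456906 and 0.31 at 100 nmol/kg semaglutide, while the median of all genes was -0.03 and -0.02. Members whose libraries did not overlap those of vehicle numbered 0, 5, 6 and 8 at the 4 doses of BI 456906, beside 1.28%, 13.7%, 19.3% and 29.4% of all genes. They numbered 6 and 4 at the doses of semaglutide, beside 19.2% and 17.5%. All 6 comparisons share the vehicle libraries, and at the higher doses passing was so common among all genes that the members' counts alone do not set them apart. Because the members were chosen with earlier results of these data known, neither the counts nor the medians are an independent test of them.

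A slope fitted over vehicle and the 4 BI 456906 doses gave the change per 10 nmol/kg. It passed upward in 8 members and downward in 1, beside 58.9% of all genes. Slc7a2 had the steepest slope, 0.82 ± 0.05 (FDR 5.9e-15) on the log2 scale, followed by Slc38a2 with 0.66 ± 0.05 (FDR 2.9e-13). Slc43a1 (0.33), Slc1a2 (0.29) and Slc16a10 (0.22) came next, and Slc38a4 (0.14), Slc38a3 (0.13) and Slc3a2 (0.07) had the smallest upward slopes. Slc25a47 had a slope of -0.09 ± 0.04 (FDR 0.03) and Slc1a4 one of 0.11 ± 0.06 (FDR 0.11), with a 95% interval of -0.01 to 0.24. The Slc25a47 slope did not pass without library 70 (-0.08, FDR 0.076).

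The comparison of compounds asks whether the dual agonist and the GLP-1R agonist gave different transporter levels at the same molar dose. Equal doses need not activate the GLP-1R equally, so a difference cannot be assigned to a receptor. At the shared dose of 20 nmol/kg 3 members were higher with BI 456906 than with semaglutide and none was lower, beside 2.42% of all genes that passed. The largest difference was that of Slc1a4, with 0.79 to 1.99 TPM against 0.34 to 0.58 TPM and a log2FC of 1.36 ± 0.25 (FDR 0.00079), a 2.56-fold difference. Slc7a2 (134 to 194 against 78.9 to 121 TPM) differed by 0.68 ± 0.19 (FDR 0.036), and Slc38a3 (645 to 765 against 468 to 571 TPM) by 0.46 ± 0.09 (FDR 0.003). In all 3 genes the 2 groups did not overlap, and this was also true of Slc38a4, whose difference of 0.20 ± 0.06 (FDR 0.056) just missed the threshold. Such separation was seen in 4 members, beside 1.69% of all genes. The Slc7a2 difference did not pass without library 77, the one with the fewest reads in the 20 nmol/kg semaglutide group (0.65, FDR 0.078).

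For the remaining 6 members no difference was detected at 20 nmol/kg, and the intervals bound its size. The 95% interval of the log2 difference was -0.53 to 0.19 for Slc38a2, -0.17 to 0.39 for Slc1a2 and -0.42 to 0.10 for Slc16a10. It was -0.08 to 0.18 for Slc3a2, -0.43 to 0.09 for Slc25a47 and -0.52 to 0.62 for Slc43a1. Slc38a2 and Slc7a2 both rose with both compounds, but at the shared dose the Slc38a2 estimate was lower with BI 456906 than with semaglutide, -0.17, while Slc7a2 was higher.

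**Figure D2:**
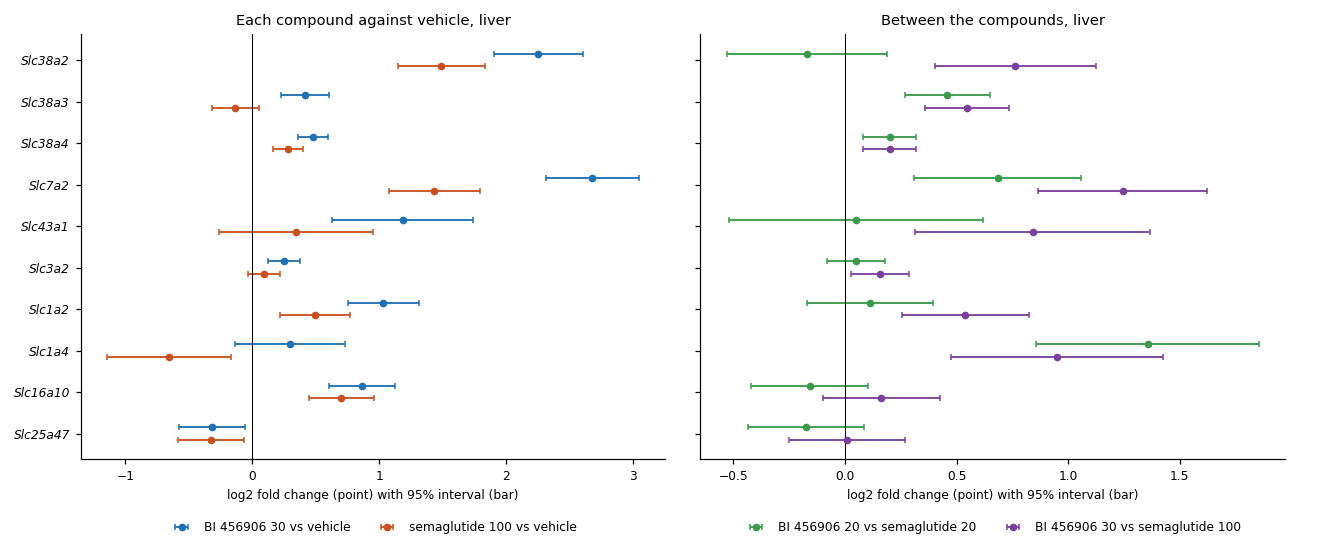
Log2 fold changes of the 10 members in liver (points) with 95% intervals (bars), for treated groups against vehicle and for BI 456906 against semaglutide. Against vehicle the 30 nmol/kg BI 456906 points of Slc7a2 (2.68) and Slc38a2 (2.26) lie farthest right, and between compounds at 20 nmol/kg Slc1a4 (1.36) does.

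Between the highest doses, 30 nmol/kg BI 456906 and 100 nmol/kg semaglutide, the doses were not matched, so a difference belongs to compound and dose together. Here 7 members were higher with BI 456906, beside 9.75% of all genes that passed, and the median log2 difference of the members was 0.54 against 0.01 for all genes. Slc7a2 differed most, by 1.24 ± 0.19 (FDR 2e-05), and without library 81 of the semaglutide group by 1.44. Slc1a4 (0.95 ± 0.23, FDR 0.0071), Slc43a1 (0.84 ± 0.26, FDR 0.033) and Slc38a2 (0.76 ± 0.18, FDR 0.0043) followed. Slc38a3 (0.55), Slc1a2 (0.54) and Slc38a4 (0.20) also passed. Libraries of the 2 groups did not overlap in 5 members, Slc7a2, Slc38a2, Slc38a3, Slc38a4 and Slc43a1, beside 2.94% of all genes. The intervals were -0.10 to 0.43 for Slc16a10, 0.03 to 0.29 for Slc3a2 and -0.25 to 0.27 for Slc25a47, none of which passed, although Slc3a2 did with sample quality weights (0.18, FDR 0.026). Slc43a1 missed the threshold in edgeR (FDR 0.065) and with no filter (FDR 0.071). Slc1a2 missed it on the log2(TPM + 1) scale (FDR 0.087) and on the log2(TPM + 0.1) scale (FDR 0.089). Against 20 nmol/kg semaglutide, 30 nmol/kg BI 456906 was higher in 6 members beside 13.6% of all genes: Slc1a4 (1.29), Slc7a2 (1.24), Slc43a1 (0.80), Slc1a2 (0.55), Slc38a3 (0.47) and Slc38a4 (0.23). Slc38a2, with 0.41 ± 0.18 (FDR 0.12), was not among them, but passed with sample quality weights (0.47, FDR 0.016), as did Slc3a2 (0.17, FDR 0.020). In that comparison Slc43a1 again missed the threshold in edgeR (FDR 0.072) and with no filter (FDR 0.067). It also did so in DESeq2 (FDR 0.053) and on the log2(TPM + 0.1) scale (FDR 0.057). Slc1a2 missed it on both TPM scales (FDR 0.083 each).

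The 2 semaglutide doses were not told apart. No member passed between 100 and 20 nmol/kg in limma/voom, edgeR or DESeq2, and none had an unadjusted p under 0.05 in any of them, beside 0% of all genes that passed. The widest estimate was that of Slc38a2, lower at 100 nmol/kg by a log2FC of -0.35, with a 95% interval of -0.71 to 0.0029. For Slc7a2 the estimate was -0.01 with an interval of -0.37 to 0.36.

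A wider list of 54 further amino acid carriers of the plasma membrane and mitochondria was examined beside the members, and 32 of them passed the filter on low values in liver. At 30 nmol/kg BI 456906, 7 of the 32 rose and 6 fell beside 58.8% of all genes that passed, with a median log2FC of -0.09 against -0.03 for all genes. Of these, Slc3a1, the heavy chain that pairs with the cystine and dibasic amino acid exchanger, went from 19.4 ± 5.48 to 70.97 ± 6.38 TPM (SD), a log2FC of 1.85 ± 0.17 (FDR 3e-11). Slc25a22, a mitochondrial glutamate carrier, went from 148 ± 11.4 to 538 ± 105 TPM, a log2FC of 1.67 ± 0.20 (FDR 4.4e-09). Slc25a15, the mitochondrial ornithine carrier of the urea cycle, and Slc25a29, a mitochondrial carrier of basic amino acids, were also called, with 1.01 ± 0.12 (FDR 3.6e-09) and 1.13 ± 0.18 (FDR 1.3e-06). Slc7a4, a relative of the cationic carriers, was the member of the wider list called lower, from 0.917 ± 0.317 to 0.445 ± 0.225 TPM, with -1.18 ± 0.24 (FDR 5.2e-05). Among those picked for their level in vehicle liver, the aspartate-glutamate carrier Slc25a13 (-0.09 ± 0.06, FDR 0.21) and the GABA and taurine carrier Slc6a13 (0.13 ± 0.06, FDR 0.068) did not pass. Slc7a7 (-0.55, FDR 0.00046) and Slc7a8 (-0.84, FDR 0.00054) were lower at 30 nmol/kg BI 456906, where Slc3a2 was higher. Both encode light chains that pair with the Slc3a2 product and are named here after their values were seen. With semaglutide they were lower too, Slc7a7 at 20 (-0.45, FDR 0.0043) and 100 nmol/kg (-0.37, FDR 0.015). Slc7a8 had -0.67 (FDR 0.0054) and -0.81 (FDR 0.0011) at these doses. The further such light chains on the list, Slc7a5, Slc7a6, Slc7a10 and Slc7a11, were not among the carriers that passed at 30 nmol/kg BI 456906. Only the 32 tested carriers could pass, and which of these light chains were among them is not given here.

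At 100 nmol/kg semaglutide 6 of the 32 rose and 5 fell beside 48.2% of all genes that passed, and Slc3a1 (0.92), Slc25a22 (0.88) and Slc25a29 (0.76) were again higher, while Slc7a4 (-1.01) was again lower. The low-level mitochondrial carrier Slc25a2, named after its values were seen, was the 1 called higher there, with 1.12 ± 0.34 (FDR 0.0061) and means of 0.468 against 0.192 TPM. It was also the 1 called higher at 20 nmol/kg semaglutide (1.03). Between the compounds at 20 nmol/kg 1 of the 32 was higher with BI 456906 and 1 lower, beside 2.42% of all genes. The former was Slc25a15, with 0.52 ± 0.12 (FDR 0.0097), and the latter, named after its values were seen, was the glycine carrier Slc6a9 (17.98 against 28.1 TPM on average), with -0.70 ± 0.18 (FDR 0.025). Slc3a1 had a difference of 0.54 ± 0.17 (FDR 0.08) and Slc25a22 one of 0.38 ± 0.20 (FDR 0.39) at that dose. At the highest doses, beside 9.75% of all genes, Slc3a1 (0.93), Slc25a22 (0.79) and Slc25a15 (0.73) passed upward, and Slc38a10, also named after its values were seen, was lower with BI 456906 (-0.18 ± 0.04, FDR 0.0063).

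Across the 42 liver libraries, which share the treatment groups, the members did not all vary together. As a description, the Pearson correlation of log2(TPM + 1) was 0.90 between Slc38a2 and Slc7a2, 0.90 between Slc38a4 and Slc7a2 and 0.85 between Slc38a2 and Slc16a10. After the group means were removed these values were 0.59, 0.49 and 0.58. Slc1a4 had values between -0.15 and 0.48 with the other 9 members. Outside the list, the genes with the patterns most like Slc38a2 were Yod1 and Tle1 (0.96 each), and those most like Slc7a2 were Zfp281 (0.95) and Cbs (0.95), the last encoding the first enzyme of transsulphuration. Slc38a4 was most like Dpyd (0.94), Slc16a10 like Hnrnpll (0.91) and Ell2 (0.90), and Slc38a3 like Serpina1b (0.89) and Habp2 (0.85). Slc43a1 was most like Aass (0.85), which begins lysine breakdown, and E030018B13Rik (0.82). The pairs most like Slc3a2 were Dhx16 and Ptdss1 (0.82 each), those most like Slc1a2 were Lifr (0.82) and Cyp1a2 (0.81), those most like Slc1a4 were Sptssa (0.76) and Mmd2 (0.75), and those most like Slc25a47 were Cgref1 (0.75) and Mapre3 (0.71).

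In eWAT the same genes had other levels. With vehicle, Slc3a2 had the highest mean there, 174 ± 20.6 TPM, and Slc38a2 was next with 36.03 ± 0.987 TPM. The liver carriers Slc38a3 (0.73 to 39.5 TPM), Slc38a4 (0.27 to 26.6 TPM) and Slc25a47 (2.04 to 92.2 TPM) varied widely among the vehicle libraries of eWAT. The 5 hepatocyte markers varied with them: their sum was 19.1 to 5891 TPM (median 1551) with vehicle, 18.9 to 987 TPM (median 104) at 30 nmol/kg BI 456906 and 5.99 to 1259 TPM (median 86.7) at 100 nmol/kg semaglutide, and none of the 5 was at 0 in all libraries. Of the 5 markers 2 fell and none rose at 30 nmol/kg BI 456906 in eWAT, and none passed at either semaglutide dose. In the other groups the medians were 275, 131 and 140 TPM at 3, 10 and 20 nmol/kg BI 456906 and 83.5 TPM at 20 nmol/kg semaglutide. As a description over the 42 eWAT libraries, log2(TPM + 1) of Slc38a3, Slc38a4, Slc25a47 and Slc1a2 correlated with that of albumin mRNA with r of 0.94, 0.92, 0.91 and 0.77. Slc38a2 and Slc3a2 had r of -0.50 and -0.63. The part of hepatocyte RNA in the eWAT values of these genes was not tested.

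**Figure D3:**
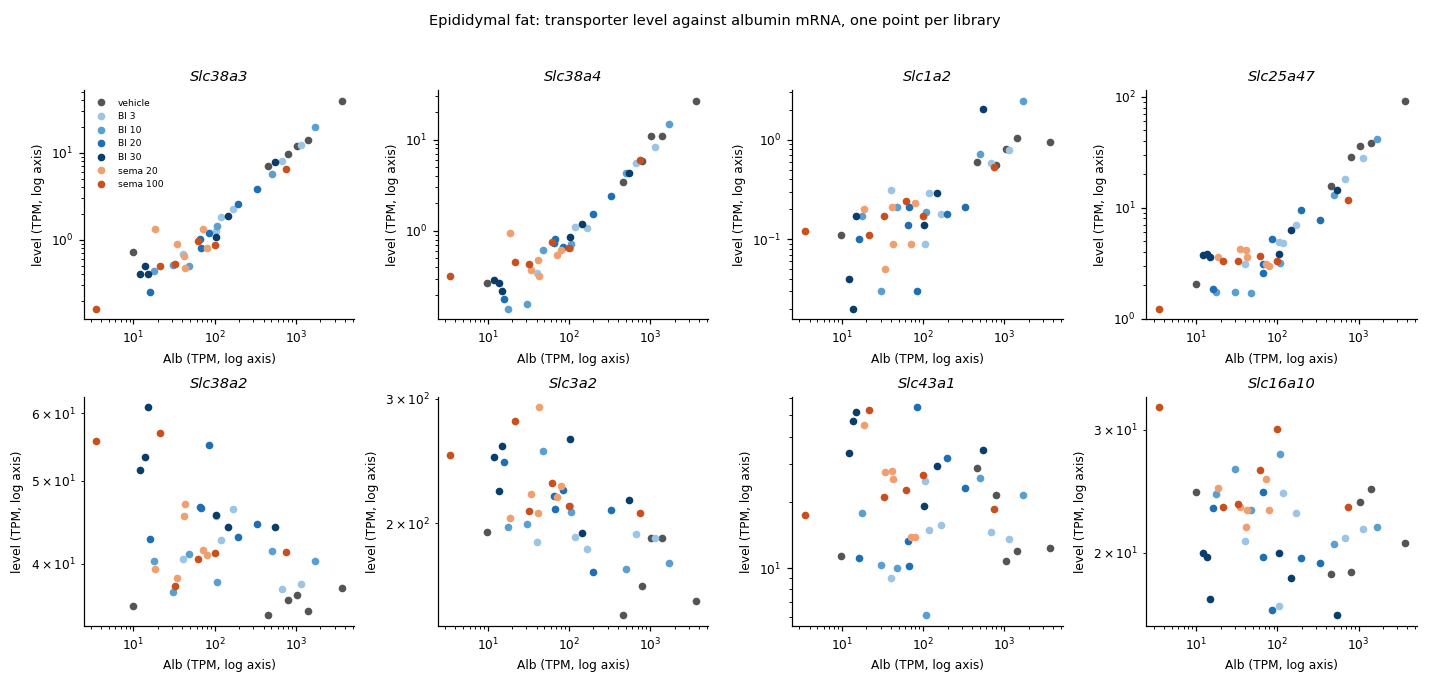
Level of members in eWAT (TPM, log axis) against that of Alb, the albumin mRNA (TPM, log axis), 1 point per library and coloured by treatment group. Slc38a3, Slc38a4 and Slc25a47 follow Alb (r of 0.94, 0.92 and 0.91), whereas the other panels show no such line or a looser one.

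With that in view, 3 members rose and 3 fell in eWAT at 30 nmol/kg BI 456906, beside 23.9% of all genes that passed. Slc38a2 rose: its levels were 34.8, 35.98 and 37.5 TPM in the vehicle group and 44.1, 48.6 and 60.99 TPM at 30 nmol/kg, with no overlap and a log2FC of 0.44 ± 0.09 (FDR 0.00046). Slc3a2 rose from 148, 177 and 195 TPM to 194, 235 and 263 TPM, with 0.39 ± 0.11 (FDR 0.0085), and Slc43a1 from 10.8, 12.2 and 28.7 TPM to 19.3, 34.2 and 51.7 TPM, with 1.10 ± 0.36 (FDR 0.023). In these latter genes 5 of 6 treated libraries exceeded all vehicle libraries. Over the eWAT libraries Slc43a1 had an r of 0.63 with Adipoq, an adipocyte marker. The median adipocyte marker sum was higher at 30 nmol/kg than in the vehicle group (29339 against 20174 TPM). Among these markers Cfd rose (1.60), Lep fell (-1.90) and the others, Adipoq among them (-0.07), did not pass. The part of adipocyte content in the Slc43a1 rise was not tested. The 3 that fell were Slc38a3 (-3.15 ± 0.99, FDR 0.019), Slc38a4 (-2.80 ± 0.97, FDR 0.033) and Slc25a47 (-2.04 ± 0.70, FDR 0.031), all of them with overlapping libraries. Vehicle library 2 of eWAT had the highest Alb level, 3680 TPM, and without it Slc38a3 still passed (-2.71, FDR 0.039), whereas Slc38a4 (-2.34, FDR 0.068) and Slc25a47 (-1.64, FDR 0.071) did not. Slc7a2, the member with the largest liver rise, had a log2FC of 0.09 ± 0.24 (FDR 0.81) in eWAT, where it was at 2.81 to 3.78 TPM.

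At 100 nmol/kg semaglutide 2 members rose and 3 fell in eWAT, beside 14.9% of all genes. Slc38a2 (0.33 ± 0.09, FDR 0.0091) and Slc3a2 (0.41 ± 0.11, FDR 0.0093) rose, both with no overlap with vehicle. For Slc38a2 the margin was narrow (37.69 against 37.45 TPM), and the rise did not pass with sample quality weights (0.21, FDR 0.078). Slc1a4 fell (-0.60 ± 0.21, FDR 0.043), as did Slc38a3 (-3.64 ± 1.07, FDR 0.019) and Slc25a47 (-2.53 ± 0.76, FDR 0.021). Slc38a4 just missed the threshold at this dose (-2.70, FDR 0.0502) and at 20 nmol/kg semaglutide (-3.14, FDR 0.056). In that order it passed in edgeR (FDR 0.043 and 0.012) and in DESeq2 (FDR 0.013 and 0.00038). The Slc1a4 call was lost under 5 alternatives, with library size alone, no filter, recovered reads and both TPM scales (FDR 0.051 to 0.089). Over the eWAT libraries Slc1a4 had an r of 0.79 with Adipoq, and at this dose 2 of 6 adipocyte markers fell, Lep (-2.65) and Plin1 (-0.92), and none rose. Their part in its value was not tested. At 20 nmol/kg semaglutide Slc3a2 rose (0.36 ± 0.11, FDR 0.039) and Slc38a3 (-3.36 ± 1.02, FDR 0.041) and Slc25a47 (-2.53 ± 0.76, FDR 0.037) fell, beside 6.33% of all genes, and none of the 3 passed without vehicle library 2. BI 456906 at 20 nmol/kg gave 1 member that passed, Slc38a2 (0.31 ± 0.09, FDR 0.031), beside 4.27% of all genes. At 3 and 10 nmol/kg none passed in limma/voom, beside 0.00539% and 0.513% of all genes. At each of these doses 4 members had an unadjusted p under 0.05, and edgeR and DESeq2, which also passed none, had 2 or 3 such members. The share of all genes under that unadjusted cut is not given here, so these counts do not set the members apart.

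No member passed between the compounds in eWAT in limma/voom, where 0% of all genes passed at 20 nmol/kg and 0.0108% between the highest doses. One member, Slc16a10, had an unadjusted p under 0.05 in each of these comparisons, and at 20 nmol/kg edgeR and DESeq2 likewise had 1 such member and passed none. The share of all genes under that unadjusted cut is not given here. Libraries of Slc16a10 at 30 nmol/kg BI 456906, 16.2 to 19.99 TPM, lay wholly below those at 100 nmol/kg semaglutide, 23.2 to 32.3 TPM, with a log2FC of -0.52 ± 0.10 (FDR 0.051). This difference passed in edgeR (FDR 0.027) and in DESeq2 (FDR 0.0019). The adipocyte marker sum was 17212 to 32358 TPM (median 29339) in the former group and 11974 to 28629 TPM (median 18779) in the latter, and over the 42 eWAT libraries Slc16a10 and Adipoq, an adipocyte marker, had an r of -0.69. The part of adipocyte content in this value was not tested. Over the BI 456906 doses the slope passed upward for Slc38a2 (0.13 per 10 nmol/kg), Slc3a2 (0.11) and Slc43a1 (0.37) and downward for Slc38a3 (-0.88) and Slc16a10 (-0.08), beside 29.5% of all genes. The Slc16a10 slope did not pass with library size alone (FDR 0.093) or with no filter (FDR 0.12). The part of adipocyte content in that slope and in the Slc43a1 slope was not tested either.

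Setting the tissues side by side tests whether a treatment effect differed between them. In a fit over all 84 libraries the log2FC at 30 nmol/kg BI 456906, taken as liver minus eWAT, was positive and passed for 7 members, beside 45.9% of all genes that passed. The difference was 2.48 ± 0.30 (FDR 2.9e-10) for Slc7a2, 1.71 ± 0.19 (FDR 4.6e-11) for Slc38a2 and 0.99 ± 0.16 (FDR 7.1e-07) for Slc16a10. It was 3.47 ± 0.85 (FDR 0.00056) for Slc38a3, 3.18 ± 0.83 (FDR 0.0012) for Slc38a4, 2.91 ± 0.70 (FDR 0.00046) for Slc1a2 and 1.62 ± 0.68 (FDR 0.045) for Slc25a47, the 4 members with the highest r with Alb in eWAT. A positive value need not mean a larger response in liver: Slc25a47 fell in both tissues, by less in liver, and the eWAT values of Slc38a3 and Slc38a4 fell while their liver values rose. Slc25a47 did not pass without vehicle library 2 of eWAT (1.32, FDR 0.084). For 100 nmol/kg semaglutide 6 members had a positive difference, among them Slc25a47 and Slc38a3, whose log2FC was lower in eWAT than in liver and below 0 in both, and Slc3a2 a negative one (-0.37 ± 0.12, FDR 0.014), beside 33.9% of all genes, and Slc3a2 did not pass without that library (-0.26, FDR 0.10). Slc7a2 (1.23 ± 0.29, FDR 0.00072) and Slc38a2 (1.11 ± 0.19, FDR 5.7e-06) were again among the former. Slc43a1 rose in both tissues at 30 nmol/kg BI 456906, and its difference between them was -0.03 ± 0.55 (FDR 0.97). The part of adipocyte content in its eWAT value was not tested.

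**Figure D4:**
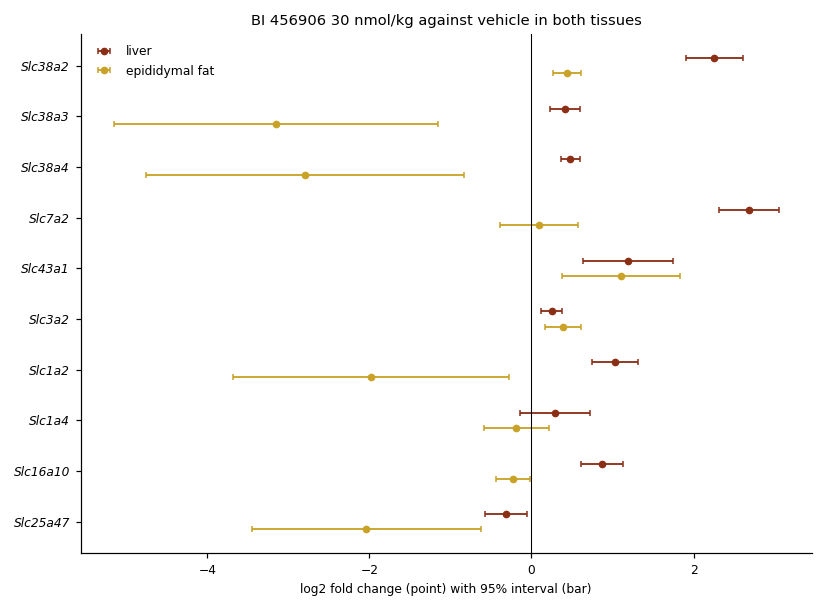
Log2 fold change of the 10 members at 30 nmol/kg BI 456906 against vehicle (points) with 95% intervals (bars) in liver and in eWAT. Slc7a2 (2.68 in liver, 0.09 in eWAT) and Slc38a2 (2.26 and 0.44) rise more in liver, and the intervals of Slc38a3, Slc38a4, Slc1a2 and Slc25a47 are wide in eWAT.

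Between the vehicle groups of the tissues, 6 members were higher in liver and 2 lower, beside 83.6% of all genes that passed. The log2 differences, liver over eWAT, were 7.89 for Slc1a2, 7.35 for Slc38a4, 7.13 for Slc38a3, 7.01 for Slc25a47 and 4.78 for Slc7a2, and under every setting tried these 5 stayed at 2.94 or more. Slc16a10 had 1.34 but 0.08 on the log2(TPM + 1) scale, and Slc3a2 (-1.07) and Slc43a1 (-1.37) were lower in liver under each setting. Slc1a4 (-0.44 ± 0.22, FDR 0.06) and Slc38a2 (0.16 ± 0.13, FDR 0.27) did not pass as fitted. The scaling between tissues matters here, since the median of all genes was -0.02 as fitted and -0.87 with library size alone, and both genes ranged widely over the 9 settings. Slc38a2 went from -1.09 to 0.21 and passed, lower in liver, in 3 of them, and Slc1a4 went from -1.58 to -0.39 and passed in 5.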

How the data were processed

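RNA-seq was performed on bulk liver and epididymal fat, 42 libraries each, 6 per treatment group, grouped by the labels. According to the submitters' processing notes, the tools were FastQC 0.11.5, STAR 2.5.2b, RSEM 1.3.0 and featureCounts 1.5.1, on mm10 (GRCm38). The study's methods describe a directional poly(A) library read in pairs, whereas the labels describe another kit and single reads, and which of them holds for these libraries was not settled. The authors deposited 2 tables per tissue. The deposited signal table holds reads per gene divided by 1 factor per library; 100% of its values were whole multiples of that factor (tolerance 1e-06), so whole read counts were recovered for depth and count tests. The deposited TPM table holds length-corrected transcript shares, computed by the authors.

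The deposited signal values were tested with limma 3.58.1 (voom, TMM scaling, edgeR 4.0.16 expression filter, R 4.3.3), in 1 fit per tissue, with a further fit over all 84 libraries for the tissue difference. That last fit treats the tissues as independent. The study also used limma/voom, there on mapped counts, while the scaling and the filter were chosen here. TMM scaling and TPM weigh the most abundant genes differently, so a ratio of mean TPM need not equal a fitted fold change. For 30 nmol/kg BI 456906 against vehicle in liver, 9384 genes passed in limma/voom, 9458 in edgeR and 9529 in DESeq2 1.42.0 on the recovered reads. The fitting code was run on simulated reads, with genes changed in a single liver group and the same dispersion for every gene. That setting is simpler than these data, so it checks the code and not the calls. Intervals are 95% and the depth per library is given with the levels. The alternatives were other scaling factors, filters, count tests, log2(TPM + 1) and log2(TPM + 0.1), sample quality weights and leaving out single libraries. Of the libraries left out, 77 and 81 had the fewest reads in the semaglutide groups of liver, 70 stood apart in earlier results of these data, and vehicle library 2 of eWAT was chosen after its data had been seen.

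All 10 members are described. From the wider list those called in liver at 30 nmol/kg BI 456906 against vehicle or between the compounds at 20 nmol/kg or at the highest doses, and the 3 with the highest vehicle level, are named, and for each member the 2 genes most alike in liver. The members and all lists were chosen with earlier results of these data known. Promoter sequences are from RefSeq (GRCm38.p6), which gave entries for 8 of the 10 members.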

Additional observations from a re-analysis of the deposited data

Results flagged for a closer look

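In 22 of 140 groups of 6 libraries, 1 library lay far from the other 5 by Dixon's criterion, which chance gives in about 1 of 20 groups, or 7 here. In liver there were 5. Slc38a2 was 90.6 TPM in library 66 of 20 nmol/kg BI 456906 (others 48.2 to 56.01). Slc7a2 was 276 TPM in library 71 of 30 nmol/kg BI 456906 (others 223 to 229) and 184 TPM in library 81 of 100 nmol/kg semaglutide (others 75.9 to 94.5). Slc43a1 was 6.09 TPM in library 51 of 3 nmol/kg BI 456906 (others 2.17 to 3.14). Slc25a47 was 1760 TPM in the same library 81 (others 770.1 to 995).

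In eWAT there were 17, of which 13 were in the 4 members with the highest correlation with albumin mRNA, and these 13 came from 4 libraries. Slc38a3 was 39.5 TPM in library 2 of vehicle. In library 15 of 10 nmol/kg BI 456906, Slc38a3 was 19.6 TPM, Slc38a4 14.95 TPM, Slc1a2 2.46 TPM and Slc25a47 41.7 TPM. In library 27 of 30 nmol/kg BI 456906 they were 7.72, 4.27, 2.03 and 14.6 TPM, and in library 42 of 100 nmol/kg semaglutide 6.42, 5.96, 0.530 and 11.7 TPM. The remaining 4 were Slc38a2 with 55.1 TPM in library 23 of 20 nmol/kg BI 456906, Slc43a1 with 52.7 TPM in library 39 of 100 nmol/kg semaglutide, and Slc3a2 with 212 TPM in library 9 of 3 nmol/kg BI 456906 and with 292 TPM in library 32 of 20 nmol/kg semaglutide.

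The effect of treatment differed between the tissues in 14 tests of the difference (limma/voom), liver minus eWAT on the log2 scale. Of all genes, 45.9% passed this test at 30 nmol/kg BI 456906 and 33.9% at 100 nmol/kg semaglutide. At 30 nmol/kg BI 456906 the differences were 3.47 for Slc38a3, 3.18 for Slc38a4, 2.91 for Slc1a2, 2.48 for Slc7a2, 1.71 for Slc38a2, 1.62 for Slc25a47 and 0.99 for Slc16a10. At 100 nmol/kg semaglutide they were 3.46 for Slc38a3, 2.94 for Slc38a4, 2.42 for Slc1a2, 2.15 for Slc25a47, 1.23 for Slc7a2, 1.11 for Slc38a2 and -0.37 for Slc3a2. In eWAT, Slc38a3, Slc38a4, Slc25a47 and Slc1a2 had r of 0.94, 0.92, 0.91 and 0.77 with albumin mRNA. The part of hepatocyte RNA in their differences was not tested, and the fit treats the tissues as independent. Over the alternatives tried, Slc7a2 ranged from 2.46 to 2.83 and Slc38a2 from 1.69 to 1.86 at 30 nmol/kg BI 456906, and both passed under each, while Slc1a2 ranged from 1.02 to 2.94. Slc25a47 at 30 nmol/kg BI 456906 passed in 7 of 9 settings, and Slc3a2 at 100 nmol/kg semaglutide in 5 of 9.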

How the results depend on the processing

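In liver each count of passing members stayed within 1.5 times its value under the alternatives tried. Single calls near the threshold did not all hold: Slc38a4 between the compounds at 20 nmol/kg passed under 7 alternatives (FDR 0.0023 to 0.045), and Slc25a47 at 30 nmol/kg BI 456906 did not with no filter (0.051) or quality weights (0.057). In eWAT the number of passing members moved more. With sample quality weights it was 6 at 10 nmol/kg BI 456906 (0 before), 5 at 20 nmol/kg (1 before), 5 at 20 nmol/kg semaglutide (3 before), 3 where the 30 nmol/kg group met the 20 nmol/kg semaglutide group (0 before), 4 between the highest doses (0 before) and 8 for the dose slope (5 before). Over all genes the number passing at 10 nmol/kg BI 456906 rose with these weights too, from 95 to 2638, so these counts alone do not set the members apart. At 20 nmol/kg BI 456906 the number of passing members was 3 in edgeR, 5 in DESeq2, 4 on log2(TPM + 1) and 2 on log2(TPM + 0.1), where 1084 and 871 of all genes passed on the TPM scales (792 before). At 20 nmol/kg semaglutide it was 5 in DESeq2 and 0 without vehicle replicate 2. Between the highest doses it was 1 (Slc16a10) with RLE factors, library size alone, at least 10 reads per library, edgeR, DESeq2 and both TPM scales. Estimates near 0 changed sign in 11 cases, none of which passed: Slc38a3 at 100 nmol/kg semaglutide (0.048) and Slc43a1 between the compounds at 20 nmol/kg (-0.055) with quality weights, Slc25a47 between the highest doses (-0.0092 with library size alone, -0.0034 with no filter, -0.040 in edgeR and in DESeq2) and Slc7a2 in eWAT at 30 nmol/kg BI 456906 (-0.038 in edgeR, -0.029 in DESeq2, -0.072 on log2(TPM + 1), -0.064 on log2(TPM + 0.1), -0.18 with quality weights). The cause was not tested. Over all genes, quality weights raised the passing number between the compounds in liver at 20 nmol/kg from 386 to 853 and between the highest doses from 1556 to 3259. In eWAT, the highest doses went from 2 to 6774 with them, and 30 nmol/kg BI 456906 from 4432 to 7299. On log2(TPM + 0.1) the share of passing liver genes that were higher went from 63.2% to 82.5%, from 51.7% to 75.1% and from 50.1% to 66.8% at 3, 10 and 20 nmol/kg BI 456906, and from 49.5% to 65.4% and from 49.9% to 61.9% at the semaglutide doses. With library size alone it went from 63.2% to 52.8% at 3 nmol/kg BI 456906 and from 44.8% to 31.5% for 30 nmol/kg of it against 20 nmol/kg semaglutide. In eWAT with library size alone it went from 45.4% to 60.9% at 30 nmol/kg BI 456906. No paired analysis was possible because the library numbers differ in every group and tissue. Low reads limit Slc1a4 and Slc43a1 in liver and Slc1a2, with 4 to 298 reads per library, in eWAT.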
